A study of Mus musculus with 3 samples.

Results

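MHC class II molecules present peptides to CD4+ T cells, and 7 genes of this pathway were followed through 3 single-cell libraries of mouse brain. The 7 genes were taken by name, among 55357 genes in the count matrices: H2-Aa (ENSMUSG00000036594), H2-Ab1 (ENSMUSG00000073421), H2-Eb1 (ENSMUSG00000060586), Cd74 (ENSMUSG00000024610), Ciita (ENSMUSG00000022504), H2-DMa (ENSMUSG00000037649) and H2-DMb1 (ENSMUSG00000079547). All 7 were counted in every library. A cell was called strongly positive when it held at least 20 UMIs (unique molecular identifiers, each standing for 1 captured RNA molecule) of the 3 chain genes H2-Aa, H2-Ab1 and H2-Eb1 together. Of 32541 cells, 134 passed this threshold.

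The cells came from perilesional tissue of the left brain of male C57BL/6 mice aged 6 to 8 weeks, which carried no engineered allele named in the labels. The sham library is from mice without traumatic brain injury (TBI), with no treatment named. The TBI+PBS library is from mice given phosphate-buffered saline over 3 days after TBI, and the TBI+IL-25 library from mice given interleukin-25, 1 µg per mouse within 30 minutes of TBI and then daily for 3 days. Each group has 1 library, and the number of animals behind a library is not given in the sources used here. Every difference below therefore compares libraries, with no replicate check and no p-value, and intervals are 95% intervals for counting error only.

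A class II molecule is an alpha chain paired with a beta chain. H2-Aa and H2-Ab1 encode the chains of I-A, and H2-Eb1 encodes the beta chain of I-E. CD74, the invariant chain, fills the peptide groove until proteases cut it down in the endosome, and the H2-DM dimer, built from H2-DMa and H2-DMb1, then exchanges the remnant for a peptide. CIITA is the coactivator that switches the family on, either by lineage in dendritic cells and B cells or under interferon-gamma in macrophages, microglia and other cells. C57BL/6 mice lack I-E at the cell surface, because the promoter of its alpha chain gene H2-Ea carries a deletion.

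The factors that recruit CIITA bind an X box and, closer to the gene, a Y box. A RefSeq promoter window (build GRCm38.p6, 250 bases before to 50 after the start) was at hand for 4 of the 7 genes, H2-Aa, H2-Eb1, H2-DMa and H2-DMb1. The windows were searched on both strands for the X core letters GNAAC and the Y box letters TGATTGG, 25 to 35 bases apart from start to start. These letters were chosen after looking at these promoters. The stretches below show the pair for 3 members and for 2 further class II genes whose counts differ from theirs, H2-Oa and H2-Ob, each read 5′ to 3′ on the gene's strand with the X core and the Y box in capitals.

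H2-Aa: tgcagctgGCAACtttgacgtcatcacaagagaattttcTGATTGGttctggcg
H2-Eb1: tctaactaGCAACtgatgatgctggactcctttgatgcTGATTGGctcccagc
H2-DMb1: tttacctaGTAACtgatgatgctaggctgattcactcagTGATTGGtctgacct
H2-Oa: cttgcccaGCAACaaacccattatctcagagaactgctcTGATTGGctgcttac
H2-Ob: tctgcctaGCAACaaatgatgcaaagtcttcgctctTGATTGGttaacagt

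In GRCm38.p6 coordinates the H2-Aa stretch is chr17:34287859-34287912 on the minus strand. The others are on the plus strand, H2-Eb1 at chr17:34305768-34305820, H2-DMb1 at chr17:34153089-34153142, H2-Oa at chr17:34092295-34092348 and H2-Ob at chr17:34238810-34238860. All lie upstream of the annotated start. The Y box began 50 bases before the start in H2-Aa, 61 in H2-Eb1 and 63 in H2-DMb1, and the X core began 31, 30 and 31 bases before it. The pair was present in 3 of the 4 members with a window. Neither window of H2-DMa held TGATTGG. Among all 32851 windows of 27025 genes, 0.323% held the pair, 7.82% the Y box letters and 84.8% the X core letters. A match describes letters and is not a measured site.

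The deposited libraries held 39536447 UMIs over 8939 barcodes (sham), 58148289 over 10643 (TBI+PBS) and 61372408 over 14222 (TBI+IL-25). After filtering, 8710, 10299 and 13532 cells were kept, with medians of 4111, 4666 and 3841 UMIs per cell. Cells under 1000 UMIs made up 6.42%, 7.50% and 10.8%. Between 24 and 39 barcodes were shared by a pair of libraries. The largest classes, named by markers, were microglia-like (4997, 4592 and 5536 cells) and astrocyte-like (3284, 3431 and 6564), and the class II genes had been left out of the clustering. Monocyte/macrophage-like cells numbered 10, 248 and 104, and B cell-like cells 0, 23 and 27. All class names come from marker lists and were rebuilt here.

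Over all kept cells, RNA of the class II chains, Cd74 and Ciita was most abundant in the TBI+PBS library, and the H2-DM genes were at a similar level in all libraries. Levels are in CPM, that is per 1000000 UMIs of the cells named. UMIs count molecules captured at their 3′ end, so no length correction was made. Where 3 values follow each other, they stand for sham, TBI+PBS and TBI+IL-25 in that order. H2-Aa was at 9.72 CPM (8.75 to 10.8), 106 (103 to 109) and 26.9 (25.5 to 28.2). H2-Ab1 was at 11.2, 63.3 and 27.7 CPM, and H2-Eb1 at 8.90, 74.3 and 27.0. Cd74 was above each chain gene in every library, at 48.0, 298 and 76.5 CPM. For all of these the sham library was lowest and TBI+PBS highest, with intervals that did not overlap. The intervals treat UMIs as independent, yet 338 of the 368 sham H2-Aa UMIs lay in 4 cells. Which few cells were captured is therefore not covered by them.

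Ciita was sparse, with 15, 121 and 29 UMIs, or 0.396 CPM (0.222 to 0.653), 2.19 (1.82 to 2.62) and 0.516 (0.346 to 0.741). Its sham and TBI+IL-25 intervals overlapped. H2-DMa followed another order, at 113, 101 and 116 CPM, and H2-DMb1 was at 69.3, 73.1 and 60.4. In sham both H2-DM genes were thus above Cd74 and every chain gene, and in TBI+PBS both were below Cd74.

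A gene was called higher or lower between libraries at a ratio of 2 or more, or of 0.5 or less, with at least 20 UMIs over both. In TBI+PBS over sham, 5 of the 7 genes were called higher, against a background of 8.62% of all genes called higher and 6.21% called lower. Their ratios were 10.9 for H2-Aa (9.83 to 12.2), 8.35 for H2-Eb1 (7.47 to 9.35), 6.22 for Cd74 (5.93 to 6.54), 5.64 for H2-Ab1 (5.10 to 6.25) and 5.53 for Ciita (3.22 to 10.2). The ratio was 0.888 for H2-DMa and 1.06 for H2-DMb1. With IL-25, 3 of the 7 were called higher than in sham (background 11.7% higher, 18.3% lower), with ratios of 3.04 for H2-Eb1, 2.76 for H2-Aa and 2.47 for H2-Ab1, and Cd74 was at 1.59 (1.51 to 1.69). Between the TBI libraries, 5 of the 7 were called lower in TBI+IL-25 (background 9.40% lower, 5.50% higher), between 0.236 for Ciita and 0.437 for H2-Ab1. The last 2 comparisons share a library with the first and are not independent of it. Such totals mix the number of cells that hold the RNA with the level in each, and both are given in what follows.

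**Figure D1:**
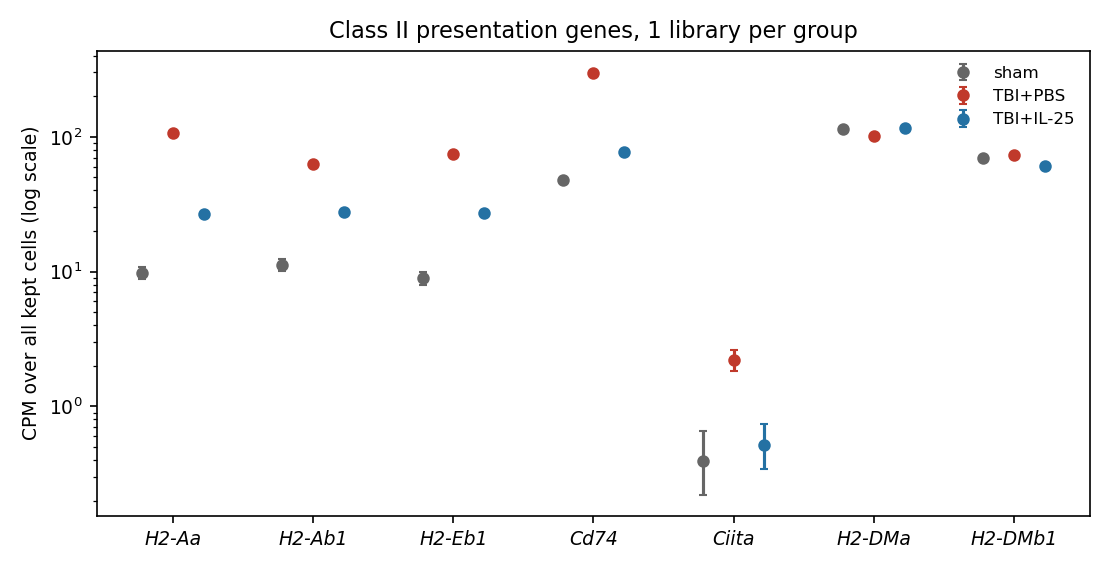
Level of each gene over all kept cells of a library, in CPM on a log axis, with exact Poisson 95% intervals as bars and 1 point per library. H2-Aa stands at 9.72, 106 and 26.9 CPM in sham, TBI+PBS and TBI+IL-25, while H2-DMa stays between 101 and 116.

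Chain RNA lay mostly in the monocyte/macrophage-like cluster and H2-DM RNA mostly in the microglia-like clusters. The 3 chain genes together had 77.7%, 86.9% and 72.8% of their UMIs in monocyte/macrophage-like cells, although these were 10, 248 and 104 cells. Part of this lay in a group of leukocytes that carried microglia markers (leukocyte sub-cluster 4, with 3, 25 and 24 cells), which held 62.1%, 16.2% and 34.2% of the chain UMIs. Microglia-like cells held 20.6%, 2.68% and 12.9% of the chain UMIs, and B cell-like cells 0, 4.93% and 12.6%. The H2-DM genes had the opposite distribution. Microglia-like cells held 94.0%, 85.3% and 94.1% of H2-DMa UMIs, and 95.5%, 82.4% and 92.5% of H2-DMb1 UMIs. Monocyte/macrophage-like cells held 1.05%, 9.33% and 2.08% of H2-DMa and 1.11%, 14.1% and 4.30% of H2-DMb1.

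H2-Ab1 and Cd74 stood between these patterns. Microglia-like cells held 44.2% of H2-Ab1 UMIs in sham (39.5% to 49.1%), 7.01% in TBI+PBS and 27.2% with IL-25, and 51.2%, 9.66% and 37.4% of Cd74 UMIs. Their share of H2-Aa was lower, at 7.34%, 1.06% and 5.43%, and of H2-Eb1 5.34%, 1.32% and 5.73%. In every library the microglia-like share of H2-Ab1 was thus above that of H2-Aa and H2-Eb1, with intervals that did not overlap. Of Ciita UMIs, 9 of 15, 87 of 121 and 12 of 29 were in monocyte/macrophage-like cells, and 2, 3 and 3 in microglia-like cells, fewer than the 4, 4 and 8 in astrocyte-like cells.

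**Figure D2:**
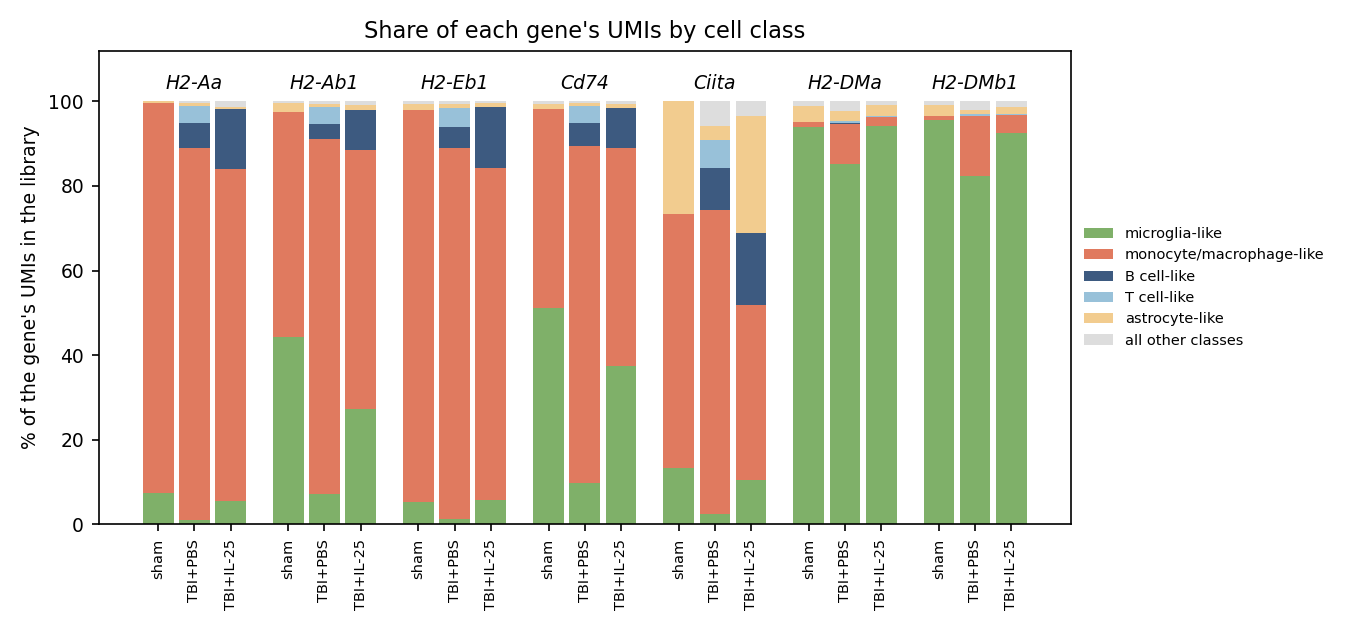
Share of each gene's UMIs, in percent of its UMIs in that library, held by each cell class, as stacked bars with 1 bar per gene and library. H2-DMa and H2-DMb1 are at 82.4% or more in microglia-like cells in every library, and H2-Aa is at 78.7% or more in monocyte/macrophage-like cells.

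The chain RNA was concentrated in very few cells. The sham library held 4 strongly positive cells (0.0459% of its cells, 0.0125% to 0.118%), the TBI+PBS library 78 (0.757%, 0.599% to 0.944%) and the TBI+IL-25 library 52 (0.384%, 0.287% to 0.504%). The 3 intervals did not overlap. These cells carried 77.5%, 94.0% and 82.8% of all chain UMIs of their libraries, 44.7%, 82.1% and 54.0% of the Cd74 UMIs, and 0.606%, 6.64% and 1.67% of the H2-DMa UMIs. At the other end, 31231 of the 32541 cells held no chain UMI and 1124 held 1 to 4.

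The threshold of 20 UMIs fell where cells were sparse. There were 24 cells with 5 to 9 chain UMIs, 28 with 10 to 19, 55 with 20 to 49 and 21 with 50 to 99. Just outside it, 17, 18 and 19 UMIs were held by 1, 3 and 3 cells. Just inside, 20, 21 and 22 UMIs were held by 4, 4 and 3 cells. The strongly positive cells had a median of 243.5 (sham), 108 (TBI+PBS) and 51 (TBI+IL-25) chain UMIs, with maxima of 352, 518 and 236. Their median depth differed as well, at 5655, 9774.5 and 4116 UMIs per cell. Scaled to depth, the chains took 36813, 16872 and 16741 CPM of the strongly positive cells. These values come from cells chosen on the same UMIs, and a fixed number of UMIs asks for a higher CPM in a shallower cell, so no likeness or difference is read from them.

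The levels of single genes within the strongly positive cells are a description only, since the chain genes chose these cells. B cell-like cells were 16 of the 78 in TBI+PBS and 18 of the 52 in TBI+IL-25, with none in sham. The libraries thus also differ in class make-up here. H2-Aa was at 14204, 7479 and 5922 CPM, H2-Ab1 at 9497, 4157 and 4638, and H2-Eb1 at 13111, 5236 and 6182. Cd74 was at 34123, 18047 and 10241 CPM, or 0.927, 1.07 and 0.612 Cd74 UMIs per chain UMI. Cd74 was detected in all 134 cells. Ciita was detected in 4 of 4, 44 of 78 (56.4%) and 10 of 52 cells (19.2%), at 294, 135 and 57.4 CPM. The TBI+IL-25 cells, at the lowest depth, were lowest for Cd74 and Ciita. The part of depth in the detection of Ciita, and of class make-up in either gene, was not tested. H2-DMa was at 1093, 492 and 481 CPM and H2-DMb1 at 1009, 682 and 556, so H2-DM RNA in these cells was above its microglia-like level of 112 to 220 CPM.

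The cells that carried the chains were mainly of the monocyte/macrophage-like and B cell-like classes. Of 362 monocyte/macrophage-like cells 94 were strongly positive, 4 of 10 in sham, 58 of 248 in TBI+PBS (23.4%) and 32 of 104 in TBI+IL-25 (30.8%). Of 50 B cell-like cells 34 were, namely 16 of the 23 from TBI+PBS and 18 of the 27 from TBI+IL-25. The other 6 were 3 of 171 T cell-like cells, 2 of 15125 microglia-like cells and 1 of 13279 astrocyte-like cells. The 3 T cell-like ones, all of TBI+PBS, held 49, 38 and 475 chain UMIs and 6 or 7 T cell markers beside 7 or 8 markers of B cells, monocytes or dendritic cells. Their depths were 7762, 14561 and 16005 UMIs in the same order. Whether such barcodes held 2 cells was not tested beyond the doublet filter. They set the T cell-like level of TBI+PBS, where the chains were at 1963 CPM. The T cell-like cells of the other libraries held 0 chain UMIs (sham, where 3 counts would be 42.0 CPM) and 1 (TBI+IL-25).

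Clustering the 643 leukocytes again placed the strongly positive cells more finely. Sub-cluster 2 held 41 of them among its 73 cells, 1 of 4 in sham, 25 of 36 in TBI+PBS (69.4%) and 15 of 33 in TBI+IL-25 (45.5%). It held 7 of 10 monocyte/macrophage markers and stayed unnamed, since genes of other lists, Flt3 among them, led it. Flt3 encodes a growth factor receptor of dendritic cell precursors. Among its 41 strongly positive cells Ccr2, a receptor of circulating monocytes, was detected in 27, Itgax (CD11c) in 22, Flt3 in 13, Cd209a in 9 and Zbtb46, a factor of conventional dendritic cells, in 8. At least 3 of 12 dendritic markers were held by 20 of them (48.8%), and at least 3 of 10 monocyte/macrophage markers by 33 (80.5%). Among the other 32 cells of sub-cluster 2 it was 9 (28.1%) and 23 (71.9%). The medians were 2 dendritic and 4 monocyte/macrophage markers in both sets. At least 3 of 10 microglia markers were held by 17 of the 41 and 16 of the 32.

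Sub-cluster 4 held 24 strongly positive cells of 52, and its markers were those of microglia. Among the 24, Cx3cr1 was detected in 22, Tmem119 in 11 and P2ry12 in 8, all genes of microglia, beside Mrc1 in 18 and Ccr2 in 17. At least 3 of 10 microglia markers were held by 19 of them (79.2%), with a median of 4.5. Among the other 28 cells of sub-cluster 4 it was 27, with a median of 9. Nor was this particular to sub-cluster 4. At least 3 were held by 6 of the 7 strongly positive cells of sub-cluster 3, and by 52 of all 94 monocyte/macrophage-like ones (55.3%). Whether the barcodes of sub-cluster 4 held 2 cells was not tested. Without sub-cluster 4 and sub-cluster 9, which held astrocyte markers, there were 2, 64 and 39 strongly positive cells. The B cell-like sub-cluster 7 held 32 of 47, and each of the 32 carried at least 3 B cell markers, with Cd79a, a part of the B cell receptor, in all 32 and Ighm in 31. Their chain counts had medians of 34 UMIs (TBI+PBS) and 24 (TBI+IL-25) against 252 and 72 in sub-cluster 2, at median depths of 2267.5 and 1661 UMIs against 11523 and 5396. Per depth, all cells of sub-cluster 7 held the chains at 13008 and 11302 CPM, against 16958 and 7911 in sub-cluster 2, so the order of the 2 sub-clusters turned between the libraries. Sub-cluster 0, monocyte/macrophage-like with Vcan and Prtn3 among its leading genes, held 17 of 94. Sub-clusters 3 and 5, found mostly in TBI+PBS, held 7 of 71 and 1 of 51.

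**Figure D3:**
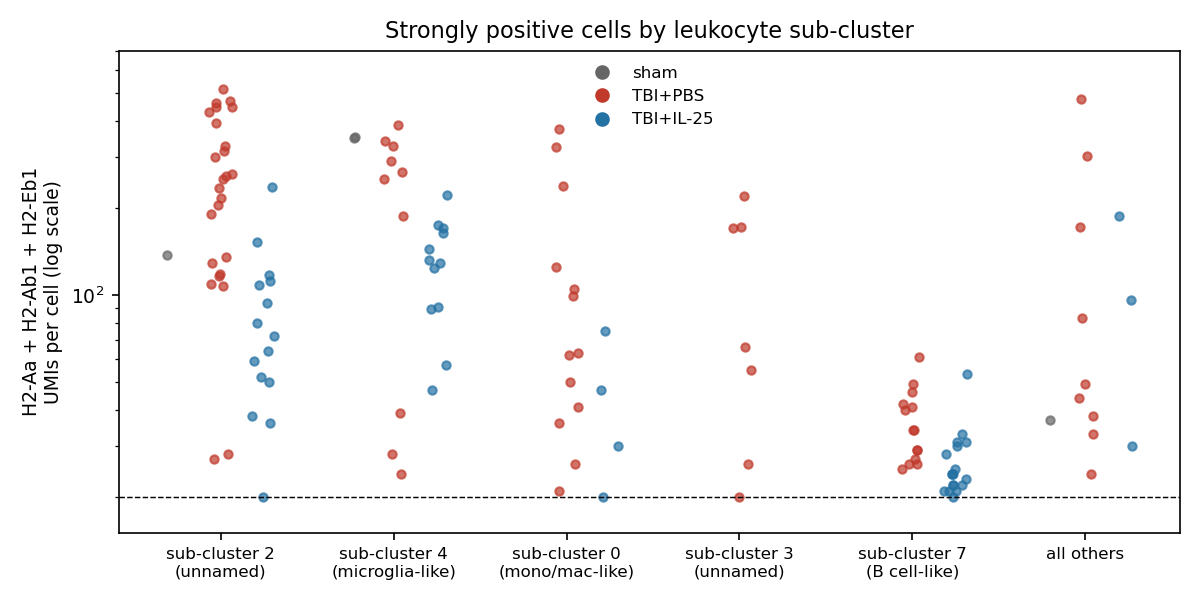
UMIs of H2-Aa, H2-Ab1 and H2-Eb1 summed per cell, on a log axis, in the 134 strongly positive cells, 1 point per cell, by leukocyte sub-cluster and library, with the threshold of 20 UMIs as a dashed line. In sub-cluster 2 the median is 252 UMIs for TBI+PBS and 72 for TBI+IL-25, while in the B cell-like sub-cluster 7 it is 34 and 24.

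Set against the other 268 monocyte/macrophage-like cells, the 94 strongly positive ones had more RNA of most dendritic markers. They had less of 5 of the 10 monocyte/macrophage markers and of every border-associated macrophage marker with a ratio. Of 12 dendritic markers 9 had enough UMIs for a ratio of CPM over all libraries, and 6 of these were at 2 or more. The highest were Zbtb46 at 10.6 (3.41 to 43.5), Flt3 at 7.45 (3.65 to 16.4), Cd209a at 4.10 and Itgax at 3.78, and the lowest were Naaa at 1.60 and Fscn1 at 0.957. Arg1, the arginase of alternatively activated macrophages, was at 315 against 2269 CPM, a ratio of 0.139. Ly6c2 was at a ratio of 0.307, Fn1 at 0.302, Vcan at 0.243 and Chil3 at 0.0513. The other 5 were Gpr141 at 1.59 (1.16 to 2.16), Ccr2 at 1.20, Plac8 at 1.01, S100a4 at 0.994 and Ms4a4c at 0.961. The border-associated macrophage markers with a ratio were all at 0.330 or less, among them Mrc1 at 0.330, Stab1 at 0.222 and Pf4 at 0.0873. The share of all genes past 2-fold between these 2 sets of cells is not given here. The threshold chose the cells on 3 other genes, and the libraries are mixed unequally on both sides, so these ratios are a description.

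Microglia-like cells are the class whose H2-DM share was largest, and chain RNA in them was low. H2-DMa was at 206 CPM (200 to 212), 189 (183 to 194) and 220 (215 to 226). H2-DMb1 was at 128, 132 and 112 CPM. Cd74 was at 47.4 (44.4 to 50.5), 63.3 (60.3 to 66.5) and 57.5 (54.8 to 60.4). H2-Ab1 was at 9.59 (8.27 to 11.1), 9.75 (8.56 to 11.0) and 15.2 (13.8 to 16.7). H2-Aa was at 1.38, 2.47 and 2.93 CPM and H2-Eb1 at 0.918, 2.15 and 3.11, from 18 to 87 UMIs each. Thus H2-DMa stood highest and H2-Aa and H2-Eb1 lowest of the 6 genes measured in all 3 libraries, while Ciita gave 2, 3 and 3 UMIs.

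The astrocyte-like class serves as a comparison for these low values. There H2-Aa was at 0.0678, 3.57 and 0.426 CPM and H2-Eb1 at 0.339, 2.81 and 0.615. Without the 1 strongly positive astrocyte-like cell, the TBI+PBS values were 2.58 and 2.20 CPM, close to the microglia-like 2.47 and 2.15. With or without that cell the microglia-like values of TBI+PBS did not exceed the astrocyte-like ones. The class leaves out the unnamed cluster 9, which held 10 of 10 astrocyte markers and 1090 TBI+PBS cells. With cells thinned to 2000 UMIs, H2-Aa was detected in 0.279% of these and in 0.678% of microglia-like cells of TBI+PBS. H2-Eb1 was detected in 0.651% and 0.280%. For H2-Aa the comparison thus depended on which cells were counted. Whether this RNA came from the cells themselves was not tested. H2-Ab1 in astrocyte-like cells was at 0.610, 1.74 and 0.804 CPM, Cd74 at 1.36, 7.28 and 2.13, and H2-DMa at 11.0, 9.48 and 7.47, all below the microglia-like level in the same library.

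The make-up of the chain RNA differed between cells. H2-Ab1 gave 25.8%, 24.6% and 27.7% of chain UMIs in the strongly positive cells. In the other microglia-like cells it gave 80.7% (75.0% to 85.6%), 67.9% (62.8% to 72.7%) and 84.8% (81.2% to 87.9%). In the other astrocyte-like cells it gave 60.0% (32.3% to 83.7%), 24.1% (15.4% to 34.7%) and 43.6% (27.8% to 60.4%), from 15, 83 and 39 chain UMIs. Only the TBI+PBS share was near that of the strongly positive cells. The sham interval lay above that of the sham strongly positive cells (22.9% to 28.8%). The TBI+IL-25 interval overlapped that of its strongly positive cells (26.3% to 29.2%), so no separation is shown in that library. Pooled over all libraries the astrocyte-like share was 33.6% (25.7% to 42.1%). Microglia-like cells thus held H2-Ab1 RNA in a ratio to H2-Aa and H2-Eb1 that the strongly positive cells did not have, in every library.

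**Figure D4:**
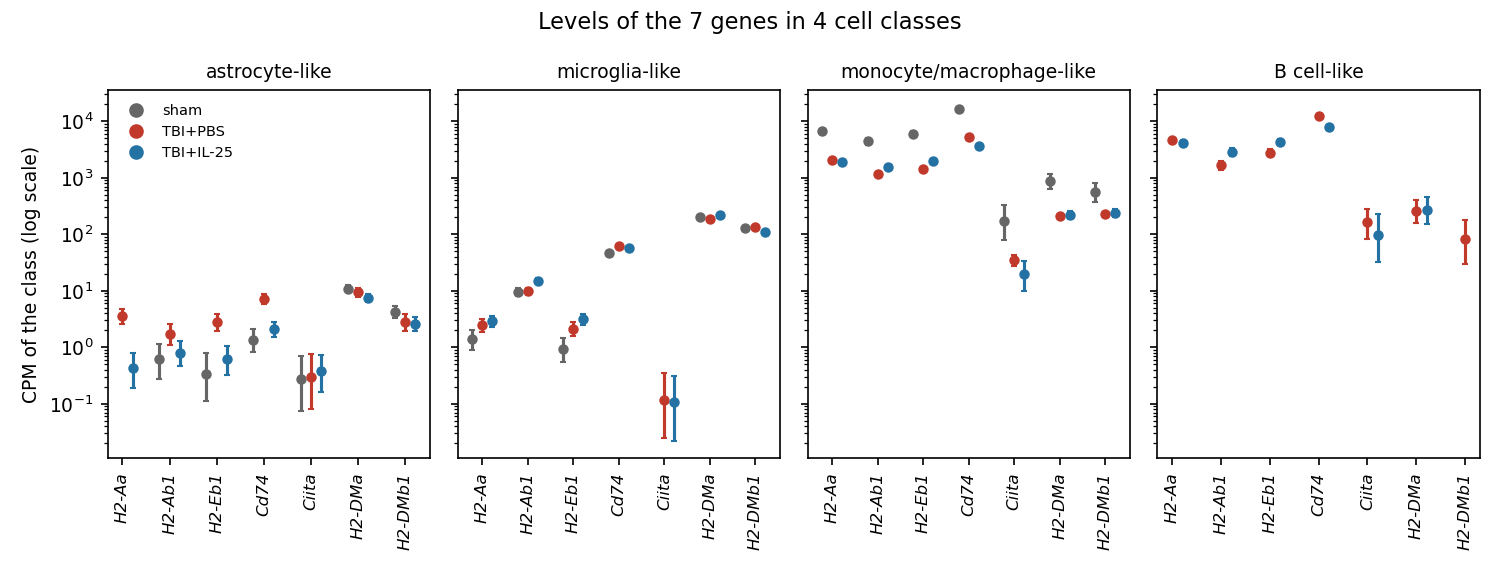
Level of each gene in 4 cell classes, in CPM on a log axis, 1 point per library, with exact Poisson 95% intervals and with points of fewer than 3 UMIs left out. H2-DMa and H2-DMb1 in microglia-like cells lie between 112 and 220 CPM, and H2-Aa and H2-Eb1 there lie between 0.918 and 3.11 CPM.

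At a matched depth of 2000 UMIs per cell, 4366, 4279 and 5089 microglia-like cells remained, and 631, 313 and 447 shallower ones were left out. A UMI of H2-DMa or H2-DMb1 was present in 46.9%, 46.8% and 47.7% of them, and a chain UMI in 2.13%, 2.69% and 3.10%. Cells with an H2-DM UMI and no chain UMI made up 45.6%, 45.5% and 46.1%. Cd74 was present in 4.72%, 9.11% and 8.55%, and before thinning in 7.86%, 19.4% and 18.1%, at median depths of 3916, 4746.5 and 4729.5 UMIs. In astrocyte-like cells at the same 2000 UMIs, Cd74 was present in 0.269%, 0.849% and 0.274%, a chain gene in 0.231%, 1.53% and 0.320%, and H2-DMa in 1.65%, 1.19% and 1.21%. Their median depths before thinning were 4511, 3581 and 2919.5, and 681, 1074 and 2191 cells were left out.

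Between libraries, few of the genes passed the 2-fold threshold in microglia-like cells. In TBI+PBS over sham, H2-Eb1 was the 1 of 6 called higher (ratio 2.34, 1.35 to 4.24, from 54 against 18 UMIs), with a background of 6.98% of genes higher and 7.70% lower. In TBI+PBS its level did not exceed that of the astrocyte-like class, which leaves out cluster 9, as given above. The ratio was 1.34 for Cd74 (1.23 to 1.45), 1.02 for H2-Ab1 (0.837 to 1.24) and 0.916 for H2-DMa (0.878 to 0.956). In TBI+IL-25 over sham, H2-Eb1 (3.39, 2.02 to 5.98) and H2-Aa (2.13, 1.36 to 3.42) were the 2 of 6 called higher (background 12.0% higher, 15.3% lower), and H2-Ab1 was at 1.58 (1.33 to 1.89). Over TBI+PBS, 0 of 6 were called in either direction in TBI+IL-25 (background 6.41% higher and 4.67% lower). H2-Ab1 was at 1.56 (1.33 to 1.83), H2-DMa at 1.17 and H2-DMb1 at 0.848.

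The TBI+IL-25 calls over sham rested on the 2 strongly positive cells of the class. Without these cells, 43 of the 82 H2-Aa UMIs and 28 of the 87 H2-Eb1 UMIs of TBI+IL-25 remained, and 0 members were called higher over sham. H2-Ab1 kept 396 of 424. The median log2 ratio over the 6 genes was 0.23, 0.47 and 0.24 in the 3 comparisons, beside -0.16, -0.20 and -0.06 for all genes measured. Different clusters held most of the class in each library, clusters 3 and 6 in sham and clusters 0 and 4 in both TBI libraries. Within cluster 0, present in all 3 with 442, 1994 and 1646 cells, Cd74 went the other way, at 107, 52.2 and 38.4 CPM. It was called lower there in TBI+PBS over sham (0.486, 0.415 to 0.571, background 3.69% lower and 4.66% higher) and in TBI+IL-25 over sham (0.357, 0.299 to 0.427, background 9.33% and 8.76%). Its ratio of TBI+IL-25 over TBI+PBS was 0.735, and 1 member, H2-Eb1, was called lower there (background 4.67% lower, 3.88% higher).

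Other microglia-like clusters stood apart for single genes. In cluster 16, found in the TBI libraries alone with 260 and 233 cells, H2-DMa was at 62.2 and 77.8 CPM and H2-DMb1 at 65.3 and 54.3, while Cd74 was at 112 and 124. Cluster 4, with 26, 606 and 2101 cells, had Cd74 at 348, 75.0 and 59.7 CPM. Cluster 12, the shallowest with medians of 2193, 3137 and 1453 UMIs, had H2-Ab1 at 6.98, 11.1 and 42.8 CPM. It held both strongly positive microglia-like cells, at 820 and 1909 UMIs. Both were TBI+IL-25 cells, so the level of 42.8 CPM includes their H2-Ab1 UMIs. The level without them is not given here, so 42.8 CPM is not read as a level of the cluster at large.

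In monocyte/macrophage-like cells the chain genes, Cd74 and Ciita were at higher levels than in the microglia-like and astrocyte-like classes. H2-Aa was at 6626, 2065 and 1941 CPM. Cd74 was at 16662, 5270 and 3616, Ciita at 175, 34.8 and 19.6, and H2-DMb1 at 565, 228 and 239. H2-DMa was at 877, 208 (190 to 226) and 222 (187 to 263), with intervals that overlapped the microglia-like ones in both TBI libraries. Against sham, 7 of 7 were called lower in TBI+PBS (background 18.3% lower, 32.2% higher) and 7 of 7 in TBI+IL-25 (background 13.5% lower, 22.3% higher). The sham class was 10 cells of which 4 were strongly positive, so these ratios turn on which few cells it held. In TBI+IL-25 over TBI+PBS 0 of 7 were called (background 4.42% higher, 9.63% lower). H2-Eb1 was at 1.36 (1.27 to 1.45), H2-Ab1 at 1.33 (1.23 to 1.43), H2-Aa at 0.940 (0.882 to 1.00), Cd74 at 0.686 (0.656 to 0.718) and Ciita at 0.563 (0.280 to 1.04).

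The sub-clusters of this class gave other ratios than the class itself. In sub-cluster 2 (36 TBI+PBS and 33 TBI+IL-25 cells) Cd74 was at 17312 against 5583 CPM, a TBI+IL-25 over TBI+PBS ratio of 0.322 (0.301 to 0.345), and H2-Aa at 7660 against 2994, a ratio of 0.391 (0.355 to 0.429). With H2-Eb1 at 0.489 and Ciita at 0.430, 4 of 7 were called lower (background 12.3% lower, 7.44% higher), and H2-Ab1, at 0.580 (0.519 to 0.648), was not. In sub-cluster 0 (56 and 38 cells) Cd74 was at 4320 against 983 CPM, a ratio of 0.228 (0.198 to 0.261). There 5 of 6 measured genes were called lower (background 11.4% lower, 3.93% higher), all but H2-DMa at 0.681. Strongly positive cells made up 13 of its 56 TBI+PBS cells, against 4 of its 38 TBI+IL-25 cells. The highest chain counts among them were 374 and 75 UMIs. Which few cells were captured is not covered by the intervals, and their part in the sub-cluster 0 ratios was not tested. In sub-cluster 4 (25 and 24 cells, of which the class holds the larger part) 0 of 6 were called (background 5.88% higher, 9.34% lower), with H2-Eb1 at 1.51, H2-Ab1 at 1.47 and Cd74 at 0.708. Of the 3 chain genes, 3 were thus called lower in sub-cluster 0, 2 in sub-cluster 2 and 0 in sub-cluster 4. Whether the sub-clusters differ was not tested. Sub-clusters 3 and 5, where no chain gene exceeded 575 CPM in either library, counted 62 and 50 TBI+PBS cells against 9 and 1 TBI+IL-25 cells. Median depth also differed, at 10016 and 4911 UMIs in sub-cluster 2 and 9564 and 5911 in sub-cluster 0, and its part in the ratios was not tested.

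**Figure D5:**
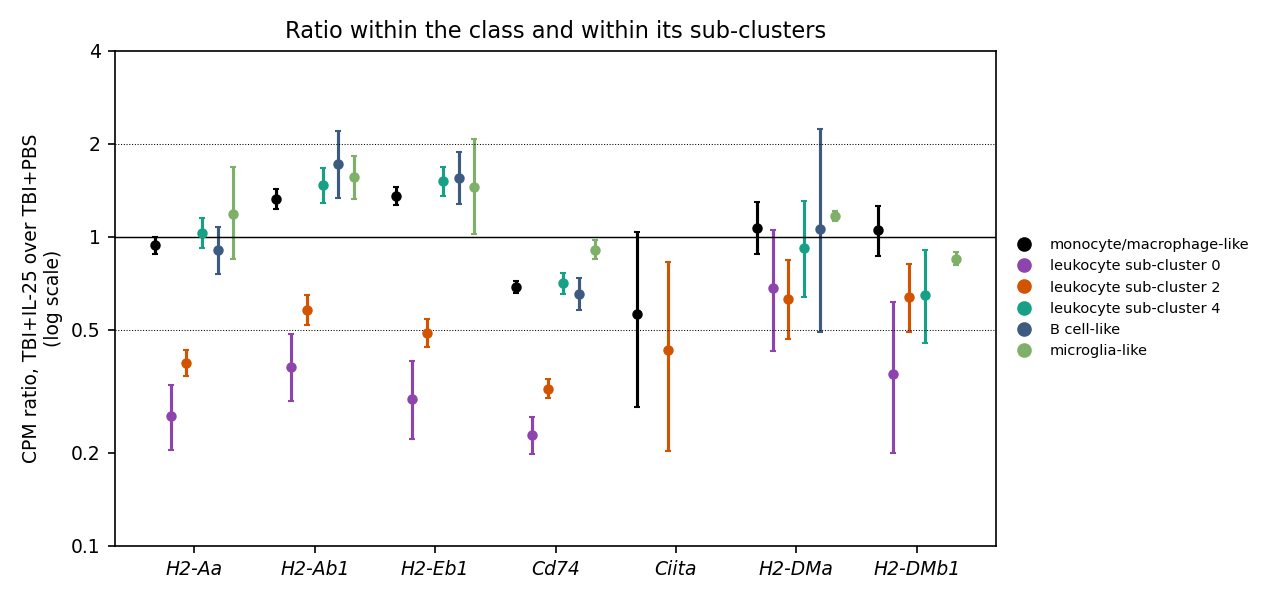
Ratio of TBI+IL-25 over TBI+PBS for each gene in the monocyte/macrophage-like, B cell-like and microglia-like classes and in leukocyte sub-clusters 0, 2 and 4, on a log axis with exact 95% intervals for counting error and dotted lines at ratios of 0.5 and 2. Cd74 is below 1 in all 6 sets, at 0.686 in the monocyte/macrophage-like class, 0.228 in sub-cluster 0, 0.322 in sub-cluster 2 and 0.708 in sub-cluster 4.

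B cell-like cells were found in the TBI libraries alone, and each chain gene was at 1660 CPM or more in them. H2-Aa was at 4598 CPM in TBI+PBS (23 cells) and 4160 in TBI+IL-25 (27 cells), H2-Ab1 at 1660 and 2845, H2-Eb1 at 2775 and 4297, Cd74 at 12190 and 7967 and H2-DMa at 258 and 275. Of 5 genes with enough UMIs, 0 were called between the 2 libraries (background 8.81% higher, 16.9% lower). The TBI+PBS class included 1 cell of sub-cluster 4, at 8647 UMIs, and 2 of sub-cluster 9, at 10814 and 8455. The median over the class was 1931.5 UMIs. These cells held 43, 25 and 44 of the 896 Cd74 UMIs. Ratios without them are not given here, so the count of 0 called is for the class as a whole. H2-Ab1 was at a ratio of 1.71 (1.34 to 2.20) and Cd74 at 0.654. As in the monocyte/macrophage-like class, H2-Ab1 and H2-Eb1 stood above 1 and Cd74 below it. This holds for the classes as wholes. In sub-cluster 7 alone the summed chains were lower in TBI+IL-25, as given above. In sub-clusters 0 and 2 H2-Ab1 and H2-Eb1 were below 1. The part of class make-up in these directions was not tested. Sham mice gave no B cell-like cell.

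The other class II genes were read from a list of 4. H2-Oa and H2-Ob encode H2-O, an inhibitor of H2-DM. H2-Oa in microglia-like cells was at 57.3, 23.0 and 19.9 CPM, with ratios over sham of 0.402 and 0.347. H2-Ob was at 29.9, 14.1 and 16.5 CPM, with ratios of 0.472 and 0.551. Of the 3 list members measured there, 2 were called lower in TBI+PBS over sham (background 7.70%) and 1 after IL-25 (background 15.3%), and the median log2 ratio was -1.08 and -0.86. The H2-DM genes that H2-O inhibits stayed between ratios of 0.879 and 1.07 in these comparisons, so H2-O RNA was lower relative to H2-DM RNA in both TBI libraries. In B cell-like cells of all libraries H2-Ob was at 611 CPM, H2-DMb2 at 450 and H2-Oa at 129. H2-DMb1 and H2-DMb2 are close copies, and how reads common to both were assigned is not given in the sources used here.

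Of 9 genes for invariant chain and peptide processing in microglia-like cells, 2 were called higher and 0 lower in TBI+PBS over sham (background 6.98% and 7.70%). In TBI+IL-25 over sham 2 were higher and 1 lower (background 12.0% and 15.3%), the lower count being near the background. Ctsl, a protease of the invariant chain, was at 1447, 2967 and 3297 CPM. Ifi30, the lysosomal thiol reductase GILT, was at 206, 750 and 710 CPM. Ctsd, an aspartic protease, was at 8034, 6061 and 3209, and Ctss, which makes the last cut of the invariant chain, at 5300, 5151 and 5100. The list's median log2 ratio was -0.04 and -0.06, near 0.

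Among 5 genes for MIF and its CD74 partners, 2 were called higher in each TBI library over sham, with none lower (background 6.98% higher after PBS and 12.0% after IL-25). Mif, a cytokine that binds CD74, was at 78.0, 296 and 538 CPM in microglia-like cells, with ratios over sham of 3.79 and 6.90. Cd44, which signals with CD74, was at 0.459, 11.3 and 13.5 CPM. In the list of costimulation and CD4 T cell partners 6 genes were measured in each TBI library over sham, and 2 were called higher and 1 lower in both (background 6.98% and 7.70% after PBS, 12.0% and 15.3% after IL-25). The 1 lower with IL-25 is near the background. Cd274 (PD-L1) was at 6.53, 16.6 and 35.8 CPM, Cd80 at 13.9, 6.01 and 4.26, and Cd86 at 262, 271 and 268. The inhibitory ligand PD-L1 was thus called higher, and the costimulator Cd80 lower, in both TBI libraries over sham. In TBI+IL-25 over TBI+PBS 8 genes of this list were measured, and 3 were called higher and 1 lower (background 6.41% and 4.67%). Cd40, the receptor for help from CD4+ T cells, had 77 UMIs in TBI+IL-25 and 3 in TBI+PBS, a ratio of 23.1 (7.61 to 114). This ratio rests on those 3 UMIs, and the sham count of Cd40 is not given here.

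Of 7 class II promoter factors measured in microglia-like cells, 0 were called in each of the 3 comparisons. The background was 6.98% higher and 7.70% lower in TBI+PBS over sham, and 12.0% and 15.3% in TBI+IL-25 over sham. In TBI+IL-25 over TBI+PBS it was 6.41% and 4.67%. At these shares a count of 0 among 7 genes is not read as a result about them. Of 7 interferon-gamma pathway genes measured, 0 were called in TBI+PBS over sham, against the same background. In TBI+IL-25 over sham 1 was called lower, near the background of 15.3%. That gene was Ifngr1, a chain of the interferon-gamma receptor, at 1206, 886 and 581 CPM. Ifng itself had 0 UMIs in microglia-like cells and was at 59.1 CPM (42.0 to 80.8) in T cell-like cells of all libraries.

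Over 26 combinations of class and library with at least 30 cells, the 15244 genes with at least 200 UMIs were ranked by Pearson correlation of log2(CPM + 1) with the summed chain genes. H2-Aa (0.969), H2-Eb1 (0.968) and H2-Ab1 (0.947), which form the sum, ranked 1 to 3. Cd74 ranked 5, at 0.935. H2-DMb1 ranked 93 at 0.750 and H2-DMa 146 at 0.725, and Ciita was below the count minimum. Beside the class II genes, the most alike were Ifi205 (0.936), Ifi211 (0.923), Ms4a7 (0.910), Aoah (0.903) and Lyz2 (0.898). H2-DMb2 was at 0.873, H2-Ob at 0.660 and H2-Oa at 0.551. The points share libraries, depth and free RNA, so these values describe likeness alone.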

How the data were processed

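The deposited matrices hold raw UMI counts per gene and barcode, and no normalization was applied by the authors to them. Per the file headers, Cell Ranger 7.1.0 made the sham and TBI+PBS matrices and 7.2.0 the TBI+IL-25 matrix, while the submitters' processing notes name 7.2.0 and the build GRCm39. How barcodes were selected is not given in the sources used here.

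Cells were kept if they had 500 or more UMIs, 300 or more genes and no more than 20% of UMIs from mitochondrial genes, and doublets scored above 0.2 by Scrublet were removed (211, 301 and 635). The filter took a further 18, 43 and 55. Cells were clustered jointly in scanpy 1.11.5 (2000 variable genes without 12 class II genes, 30 components, 15 neighbours, Leiden resolution 1 with leidenalg 0.10.2), and 643 leukocytes again with 20 components, giving 29 clusters and 13 sub-clusters. A cluster was named where at least 3 markers of a class were in 20% of its cells at 2 times the median over clusters, unless its 10 leading genes held more markers of another class. The naming thresholds were chosen after looking at the data. UMIs were summed per class and library, with exact Poisson, conditional binomial and Clopper-Pearson intervals (SciPy 1.17.1), and the calculation was tested on simulated data. PCR copies were already collapsed by UMI, and these intervals cover counting error only. The calling thresholds were a ratio of 2 or 0.5 and 20 UMIs. No test between groups could be made, since each group has 1 library. The 7 genes, the further gene lists and the marker lists were chosen with earlier results of these data known. The genes named beside the 7 are list members, the 10 most alike to the summed chains and markers of the classes. The alternatives tried were other filters, thresholds, scalings, clusterings and subsets of cells.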

Additional observations from a re-analysis of the deposited data

Results flagged for a closer look

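The same ratio went in opposite directions in microglia-like and monocyte/macrophage-like cells for 2 genes. H2-Eb1 in TBI+PBS over sham was at 2.34 (1.35 to 4.24) in microglia-like cells and at 0.237 (0.211 to 0.266) in monocyte/macrophage-like cells. After IL-25, over sham, H2-Eb1 was at 3.39 (2.02 to 5.98) against 0.321 (0.283 to 0.365), and H2-Aa at 2.13 (1.36 to 3.42) against 0.293 (0.259 to 0.331). The difference between the classes was not tested, because each group has 1 library. The sham monocyte/macrophage-like class held 10 cells, 4 of them strongly positive, and the microglia-like values rest on 18 to 87 UMIs. The TBI+IL-25 values of the microglia-like class include 2 strongly positive cells, and without these the ratios there were 1.09 for H2-Eb1 and 1.12 for H2-Aa. In TBI+PBS the H2-Eb1 level of microglia-like cells did not exceed that of the astrocyte-like class, which leaves out cluster 9. The H2-Eb1 ratio of TBI+PBS over sham was 0.881 in cluster 0 alone. The 2-fold difference in microglia-like cells is thus lost under these alternatives.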

How the results depend on the processing

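Of 116 comparisons of a main count or share with an alternative, 83 stayed within 1.5 times the main count or within the main interval, and 33 moved. The strongly positive cells stayed at more in TBI+PBS than in TBI+IL-25 and fewest in sham under every alternative run. A threshold of 40 UMIs left 29 in TBI+IL-25, and without sub-clusters 4 and 9 sham had 2. The chain share in microglia-like cells of TBI+IL-25 was 14.7% with doublets kept and 10.2% with class II genes kept in the clustering. With classes from a marker score per cell, which left 1198, 958 and 821 microglia-like cells, it was 3.45% in sham, 0.453% in TBI+PBS and 1.20% for the third library.

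The count of genes called in microglia-like cells was unstable. In TBI+PBS over sham, 1 was higher and 0 lower. It was 2 higher with median-of-ratios size factors or with cells weighed equally, and 0 higher with marker scores, at least 200 UMIs, cluster 0 alone (1 lower) or astrocyte-like CPM subtracted (2 lower). H2-Eb1 turned direction in the last 2, at 0.881 in cluster 0 and at 0 after subtraction, which left nothing of it in TBI+PBS. For TBI+IL-25 over sham, 2 were higher. It was 1 without cells under 1000 UMIs or after subtraction, and 0 with class II genes kept, marker scores, at least 200 UMIs, strongly positive cells or cluster 12 left out, or cluster 0 alone (1 lower). For TBI+IL-25 over TBI+PBS, where 0 were called, 1 was higher with doublets kept and 2 with cells weighed equally. After subtraction 2 stood above a remainder of 0, H2-Aa and H2-Eb1, which gives no ratio. Further, 1 was lower with class II genes kept, strongly positive cells or cluster 12 left out, or cluster 0 alone. In monocyte/macrophage-like cells 0 were lower, 5 in sub-cluster 0 alone and 4 in sub-cluster 2 alone. Those on single clusters and sub-clusters were chosen after seeing the data. The cause of these changes was not tested.

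Of 251 ratios of single genes, 182 stayed within their interval, 67 moved without turning a called direction and 2 turned. H2-DMa and H2-DMb1 in microglia-like cells stayed between 0.834 and 1.23 throughout. The all-gene medians of the microglia-like log2 ratios were -0.16, -0.20 and -0.06, and size factors subtract them, which raises every ratio. No paired analysis was possible because each group has 1 library, so no replicate could be left out. Depth limits Ciita, with 165 UMIs in all.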

Other observations

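H2-Ea, the alpha chain gene of I-E, had 0 UMIs in each library, in 8710, 10299 and 13532 cells, which allows a share of cells with a UMI of up to 0.0423%, 0.0358% and 0.0273% (exact upper limits). H2-Eb1, the beta chain gene, was counted at 337, 4103 and 1519 UMIs in the same cells. In the strongly positive cells, H2-Eb1 was at 13111, 5236 and 6182 CPM, a level between or near those of H2-Aa and H2-Ab1.

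Klrd1 and Il1r2, which were in no list, were higher in the 94 strongly positive monocyte/macrophage-like cells than in the other 268, at ratios of 20.1 (13.8 to 30.3) and 18.9. They were chosen after their values were seen.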
